A study of Homo sapiens with 2 samples.

Results

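The genes described here are 34 known transcriptional targets of the tumour suppressor p53, sorted by what their products do. They were read from every probe set annotated to exactly 1 of their symbols. Of the 34 genes, 32 had such a probe set (71 probe sets in all), and 31 reached the signal minimum, out of 12352 genes that reached it among the 19775 with a single-symbol probe set. BTG2, an antiproliferative gene, and FDXR, a mitochondrial ferredoxin reductase gene, were not analysed here. SPATA18, a gene of mitochondrial quality control, stayed below the minimum.

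The RNA came from Seg-1 cells, an adherent line that per the labels was first taken for esophageal adenocarcinoma and is the lung line H460. One culture was transfected with a negative control siRNA matching no known gene, and the other with FGF-AS siRNA, which targets a transcript antisense to the growth factor gene FGF2. Both were harvested after 72 hours, siRNA was used at 25 to 200 nM without a stated concentration per array, and each group holds 1 Affymetrix U133 Plus 2.0 array. No untransfected culture was measured, so anything that transfection did in both cultures does not show. No difference below has a replicate check, no p-value is given, and the values describe these 2 arrays.

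p53 is a transcription factor that is held at a low level in unstressed cells, mainly by the ubiquitin ligase MDM2, and that builds up after DNA damage and other stresses. It binds pairs of a short DNA decamer in or near its target genes and raises their transcription. The products halt the cell cycle, repair DNA, sensitise cells to death ligands, alter metabolism and autophagy, or are secreted.

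Signals are the authors' linear intensities. The log2 ratio is FGF-AS siRNA over control siRNA after adding an offset of 6.1 to both signals, the brightest probe set with a single symbol stands for its gene, and the gene counts as measured when the mean of both arrays is at least 23.9. Negative ratios therefore mean a lower signal with FGF-AS siRNA. The only error available is the disagreement between probe sets of 1 gene. As the SD of a single log2 ratio it was 0.36 at or above a stricter minimum of 145.2 and 0.58 below that, and it covers neither cultures nor hybridisations.

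The siRNA target and the cell type were checked first. NUDT6, the gene that carries FGF-AS, read 27.7% and 29.1% of control on its probe sets. Of 6 general epithelial markers 5 were measured, led by the keratin genes KRT18 (10152.5 and 9327.2) and KRT8 (3475.7 and 3780.9), while CDH1, which encodes E-cadherin, was below the signal minimum (0.9 and 18.4). Of 8 lung epithelium markers 7 had a probe set and 5 were measured, all below the stricter minimum, with sums of 243.3 and 282.3 over the 7. SFTPB, a surfactant protein gene, read 110.8 and 98 (log2 ratio -0.17, and 0.85 on its other probe set). NKX2-1, a defining lung transcription factor, was below the minimum at 24.9 and 11.8. Of the 5 measured lung markers, 3 were above 0 and 2 below, with a median of 0.40, while 51.8% of all measured genes were below 0. SFTPC, another surfactant protein gene, was furthest from 0 at 14.7 and 59.1 (1.65). It reached the signal minimum only through the FGF-AS siRNA array. The 6 intestinal and glandular markers summed to 143.1 and 91.8. Of the 4 measured, 3 were at least 1.5-fold lower, against 9.52% of all measured genes. All 3 were dim and reached the signal minimum only through the control array: TFF1 (39.5 and 15.7), TFF3 (34.9 and 20.7) and MUC2 (36.8 and 16.2). Their lower reading therefore follows in part from the minimum. Of 6 leukocyte markers 2 were measured, and the 4 with a probe set summed to 80.8 and 93.9. Of 6 fibroblast markers 3 were measured, and the sum over all 6 was 545.0 and 340.1, to which COL3A1 gave 316.4 and 104.6. The part of these marker differences in the results below was not tested. An array averages over a whole culture, so fewer cells expressing a gene and less RNA per cell cannot be told apart.

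Most p53 targets read lower with FGF-AS siRNA. Of the 31 measured targets, 25 had a log2 ratio below 0 (80.6%), against 51.8% of all measured genes. Their median log2 ratio was -0.49, a 1.41-fold lower signal, with an SD across genes of 0.54, against -0.02 over all measured genes. At least 1.5-fold lower were 12 targets, while 9.52% of all measured genes were, and only DRAM1 was at least 1.5-fold higher, against 7.96% of all genes. At least 2-fold lower were 5 targets, POLH, SESN2, TP53I3, ZMAT3 and EDA2R, against 2.72% of all genes, and none was 2-fold higher, against 2.05%. The other 7 past 1.5-fold were ACER2, CDKN1A, FAS, PHLDA3, XPC, SESN1 and GADD45A. ACER2 reached the signal minimum only through the control array (37.3 against 16.8), so its place in these counts follows in part from the minimum. The targets were brighter than most genes, and 26 of them stood above the stricter minimum. Of those 26, 21 were below 0 and 9 were at least 1.5-fold lower, where 50.6% and 5.75% of all genes at that minimum were. By the SD between probe sets, 20 targets were lower by more than 1 SD, 2 were higher by more than 1 SD and 9 lay within it, while 14.8% of all measured genes were lower and 13.5% higher by that much. Past 2 SD were 7 targets, all lower, against 3.28% of all measured genes lower and 3.03% higher.

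**Figure D1:**
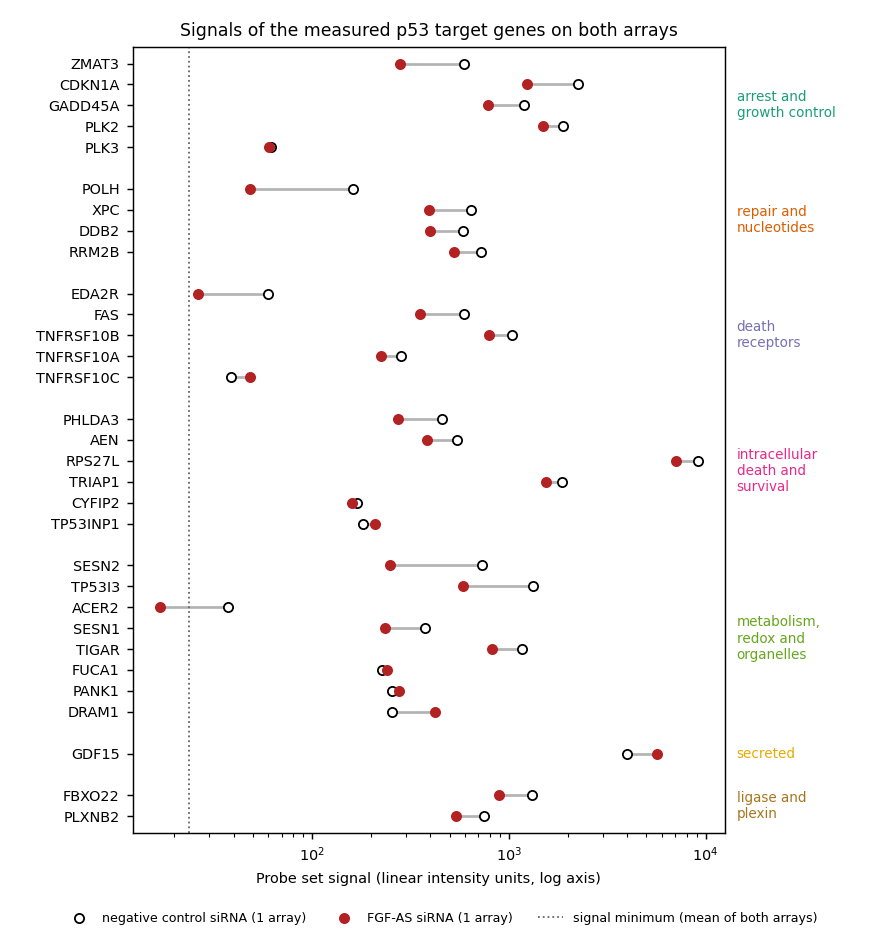
Signals of the 31 measured p53 target genes (linear intensity units on a log axis) with control siRNA (open circles) and FGF-AS siRNA (filled circles), 1 array each, sorted by function. The filled circle lies to the left of the open one for 25 genes, and the longest shift to the right is that of DRAM1 (255.5 to 422).

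The probe sets of single genes went mostly the same way. Of the 58 measured probe sets of the targets, 50 were below 0, against 56.7% of all measured single-symbol probe sets, and their median log2 ratio was -0.61, against -0.07 over all. Several measured probe sets were available for 11 targets. In 9 of these every probe set was lower, in GDF15 both were higher, and in POLH the probe sets were mixed. Probe sets of PLK3 (60.3 and 7.7), FAS (47.6 and 16.2) and ACER2 (37.3 and 16.8) reached the signal minimum only through the control array. Their direction follows in part from the minimum, and PLK3 is among the 9 only through such a probe set. The brightest probe set gave the smallest difference in some genes, such as FAS and TNFRSF10B, and the largest in others, such as POLH and SESN2.

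**Figure D2:**
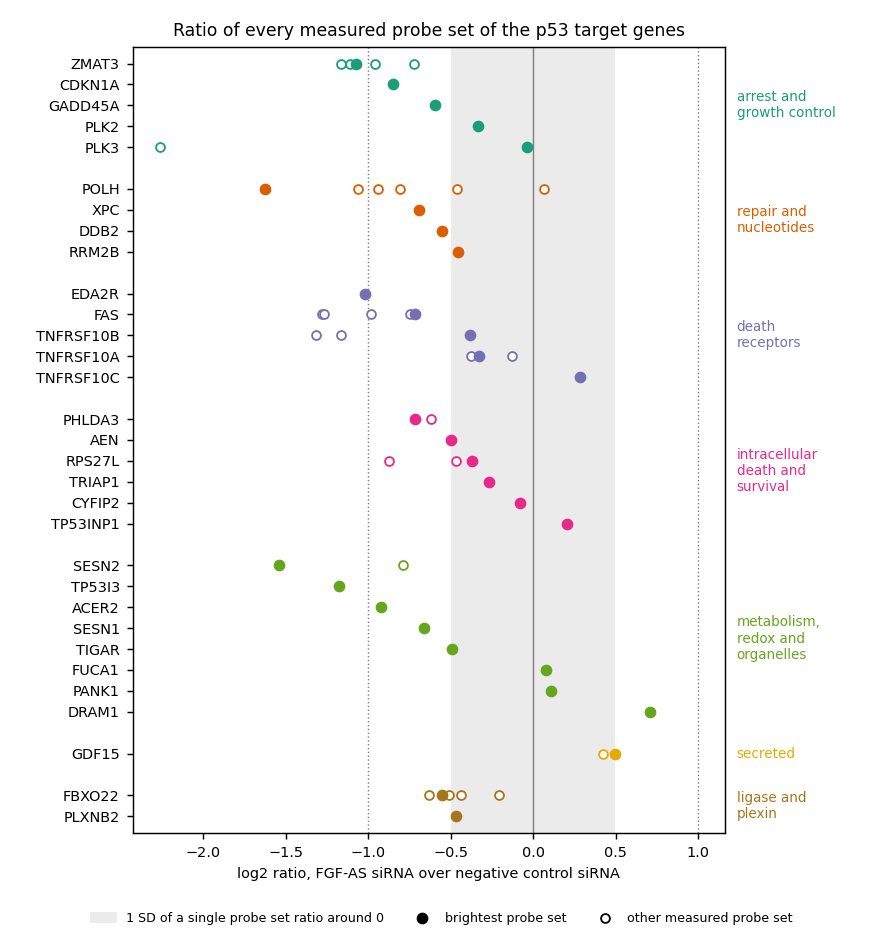
Log2 ratio of every measured probe set of the 31 p53 targets, with the brightest probe set of each gene filled and the others open. The grey band is 1 SD of a single probe set ratio around 0, pooled over bright and dim probe sets (0.49), and dotted lines mark 2-fold. The text uses 0.36 for bright and 0.58 for dim genes instead. All 5 probe sets of ZMAT3 and of FAS lie left of the band, and the open circle of PLK3 at -2.27 stands far from its filled one.

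Among the genes of cell cycle arrest and growth control, all 5 measured members were below 0, with a median log2 ratio of -0.60, and 3 were at least 1.5-fold lower. PLK3 is among the 5 only at -0.04, a value that turned positive under other scalings. Of all measured genes 51.8% were below 0 and 9.52% at least 1.5-fold lower, and these shares stand beside every group and list below. CDKN1A encodes p21, the inhibitor of cyclin-dependent kinases that carries much of the p53 arrest. Its signal was 2237.4 in control cells and 1236.4 after FGF-AS siRNA, or 55.3% of control, a log2 ratio of -0.85 on its only probe set. The difference was 2.39 times the SD between probe sets and lay at percentile 4.11 of measured genes. ZMAT3, an RNA-binding zinc finger gene, read 595.2 and 279.8 (log2 ratio -1.07). Its other probe sets read 576 and 293.8, 492 and 216.3, 305 and 182.8, and 141.7 and 62.3, so that all 5 ratios lay between -1.16 and -0.72. All of them were lower, by similar amounts.

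GADD45A, a growth arrest and DNA damage protein gene, read 1189.1 and 784.6, a log2 ratio of -0.60. PLK2, a stress-responsive polo-like kinase gene, read 1879.7 and 1489.9, and its ratio of -0.33 was within the SD of 0.36. PLK3, a related kinase gene, was dim and its probe sets did not match. The brighter one read 62.2 and 60.5 (-0.04) and the other 60.3 and 7.7 (-2.27). No level of PLK3 can be taken from these, and its brighter probe set turned positive under other scalings.

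All 4 genes of DNA repair and nucleotide supply were lower, with a median of -0.62. POLH encodes the polymerase that copies past ultraviolet lesions. All 6 of its probe sets were below the stricter minimum. The brightest read 162.5 and 48.4, 29.8% of control, a log2 ratio of -1.63 that ranked 76th lowest of all measured genes. Of the 5 others, 4 had ratios between -1.06 and -0.46 and 1 read 26.7 and 28.3 (0.07), so the size of the POLH difference depends on the probe set, while 5 of 6 were lower.

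XPC, which recognises distorted DNA at the start of global nucleotide excision repair, read 642.8 and 394.7 (-0.70). DDB2, the subunit that binds ultraviolet lesions, read 587.4 and 399.2 (-0.55). RRM2B, the p53-inducible small subunit of ribonucleotide reductase, read 724.1 and 526.9 (-0.45). Each of the 3 has 1 probe set, each differed by 1.27 to 1.94 times the SD, and none reached 2-fold. The 15 measured partners of XPC and DDB2 in nucleotide excision repair had a median of -0.11 with 8 below 0, near the 51.8% of all measured genes. DDB1, which binds DDB2, read 1842.1 and 1887.9 (0.04), and only the helicase gene ERCC2 passed 2-fold (227.6 to 107.3, -1.04, and -0.69 on its other probe set).

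Of the death receptors and their relatives among the tumour necrosis factor receptors, 4 of 5 were lower, with a median of -0.38 (-0.96 with the mean over all probe sets of a gene). FAS, the receptor of FAS ligand, was lower on all 5 of its probe sets. The brightest read 588.9 and 355.5 (-0.72), followed by 566.6 and 229.7 (-1.28), 456.1 and 269.4 (-0.75), 295.7 and 146.5 (-0.98), and the dim 47.6 and 16.2 (-1.27). The TRAIL receptor gene TNFRSF10B read 1032.2 and 791.3 on its brightest probe set (-0.38), just past the SD. Its 2 other measured probe sets, both of the _x_at type that can bind related transcripts, read 330.8 and 128.9 (-1.32) and 294.5 and 127.9 (-1.17). The direction was shared and the size was not.

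TNFRSF10A, the other TRAIL receptor with a death domain, read 283 and 224.6 (-0.33), 142.8 and 108.6 (-0.38), and 84.5 and 76.8 (-0.13), all lower and the brightest within the SD. TNFRSF10C, a decoy receptor that binds TRAIL without signalling death, was dim at 38.9 and 48.6 (0.28, within the SD of 0.58), and its 3 other probe sets were under the minimum. EDA2R, a receptor for an ectodysplasin isoform, was dim at 59.5 and 26.3 (-1.02). The 7 measured signalling partners of these receptors had a median of -0.19. CASP8, the initiator caspase recruited by FAS and the TRAIL receptors, read 1140.9 and 914.6 (-0.32, and -0.79 on its other probe set), and FADD, the adaptor between them, 475.7 and 443.2 (-0.10). Past 2-fold among the partners were only the dim CASP10 (-1.09) and EDA (1.16, but -0.81 to 0.33 on its others). CASP10 reached the signal minimum only through the control array (47.5 against 19), and EDA only through the FGF-AS siRNA array (53.6 against 20.6). The ligand genes TNFSF10 (24.6 and 21.6) and FASLG (6.3 and 19) were below the minimum.

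Of the 6 factors of intracellular death and survival, 5 were below 0, with a median of -0.32 and 1 past 1.5-fold. PHLDA3, a pleckstrin homology protein that restrains AKT, read 455.2 and 274.8 (-0.72) and 137.4 and 87.3 (-0.62). AEN, an apoptosis-enhancing nuclease gene, read 543.6 and 382.7 (-0.50). RPS27L, a ribosomal protein paralogue, read 9142.2 and 7066.7 (-0.37), 990.2 and 537.9 (-0.87), and 552.6 and 397.7 (-0.47).

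TRIAP1, which limits apoptosis at mitochondria, read 1869.4 and 1551.4 (-0.27, within the SD). CYFIP2, a subunit of the WAVE actin regulator, read 169 and 159.9 (-0.08), and this sign changed under other scalings. TP53INP1, a stress protein gene that promotes autophagy and death, was the exception of the group at 180.9 and 209.7 (0.21, within the SD).

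The genes of metabolism, redox and organelle turnover were split. Of 8 measured, 5 were below 0, against 51.8% of all measured genes, while 3 were above 0. At least 1.5-fold lower were 4, against 9.52%, among them ACER2, which reached the signal minimum only through the control array. The median was -0.58, and it turned to 0.077 when probe sets of the _s_at and _x_at types were left out, since the only probe sets of SESN1, SESN2 and TP53I3 are of these types. SESN2, a sestrin that restrains growth signalling through mTORC1, read 733.5 and 247.7, 33.8% of control. Its log2 ratio of -1.54 was 4.32 times the SD, more than for any other target, and its second probe set read 360.6 and 206.5 (-0.79). SESN1, its paralogue, read 373.3 and 233.8 (-0.66). TP53I3, a quinone oxidoreductase gene, read 1332.2 and 584.6, 43.9% of control (-1.18).

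TIGAR, a sugar bisphosphatase that lowers glycolytic flux, read 1163.5 and 825.4 (-0.49). ACER2, a Golgi ceramidase gene, was dim, and its 37.3 and 16.8 (-0.92) ended below the signal minimum. The other 3 stood above 0. PANK1, a kinase of coenzyme A synthesis, read 256.2 and 276.4 (0.11), and FUCA1, a lysosomal fucosidase gene, 227.7 and 240.5 (0.08), both within the SD. DRAM1, a lysosomal membrane protein gene of autophagy, read 255.5 and 422, a log2 ratio of 0.71 at 1.99 times the SD and percentile 94.8 of measured genes. It was the highest of all 31 targets.

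GDF15, the secreted member and a stress cytokine of the TGF-beta family, was also higher. Its main probe set read 3998.2 and 5643.3 (0.50, 1.39 times the SD), and a dim second one read 30.5 and 42.9 (0.42). Both are of the _x_at or _s_at type, and GDF15 had no value with these types left out. Its remaining probe set, below the signal minimum, went the other way (16.8 and 1.8). The remaining genes were both lower. FBXO22, the substrate receptor of a ubiquitin ligase, was below 0 on all 5 probe sets (from 1311.5 and 890.6 at -0.56 to the dim 45.3 and 38.4 at -0.21), and PLXNB2, a semaphorin receptor gene, read 745.6 and 538.5 (-0.46).

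GDF15, SESN2 and TNFRSF10B are also known targets of the stress factors ATF4 and CHOP, and they did not share a direction here (0.50, -1.54 and -0.38). Of 18 measured genes of the ATF4 and CHOP list, 14 were above 0 and 4 below 0, with a median of 0.24, while 51.8% of all measured genes were below 0. CHAC1, a glutathione-degrading enzyme gene, was furthest from 0 at 45.2 and 90.3 (0.91), and TRIB3, a pseudokinase gene, read 2464.1 and 3290.6 (0.42). None of the 18 passed 2-fold.

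Related genes that are not in the target list gave a different picture. The 36 measured family relatives had a median log2 ratio of 0.05 with 15 below 0, against 51.8% of all measured genes. Besides members of the same families, this list holds partners in a complex or pathway, such as DDB1, XPA and RRM1. DDB2 was paired only with its binding partner DDB1, and RRM2B also with RRM1, so these pairs do not compare family members. Set against their relatives in 34 pairs on the brightest probe sets, 24 targets could be compared. Of these, 20 had a lower ratio than every relative measured. Some of the 20 gaps were smaller than the SD between probe sets, as for FUCA1 (-0.04), SESN1 (-0.22), FBXO22 (-0.27) and PLK3 (-0.30 to PLK4). FUCA1 and TP53INP1 were themselves above 0, and no level of PLK3 can be taken. SESN1 was lower than SESN3 only on the brightest measured SESN3 probe set. RRM2B stood at -0.45, while RRM2, the small ribonucleotide reductase subunit used in S phase, stood at 0.64 (0.42 on its other probe set). RRM1, the large subunit that both small subunits bind, stood at 0.47 (-0.22 on its other probe set). PLK2 stood at -0.33 and PLK1, the mitotic polo-like kinase, at 0.46. CDKN1A stood at -0.85 and its relative CDKN1B, which encodes p27, at -0.14. PHLDA3 stood at -0.72 against 0.01 for PHLDA1 (-0.16 to 1.15 on its 5 others) and 0.96 for PHLDA2.

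The 4 targets that were not the lowest of their families were GADD45A (GADD45B read 243.4 and 134.3, -0.83, with others at -0.31 and -0.23), AEN (ISG20 at -0.74, and -1.20), PANK1 (PANK2 at -0.30, with others from -0.08 to 0.56) and DRAM1 (DRAM2 at -0.15, and 0.14). The relatives past 2-fold were POLL, a repair polymerase gene (119.4 and 51.8, -1.12), and PANK3, a pantothenate kinase gene (481.8 and 1081.9, 1.16, and 1.10 on its other probe set). SESN3, the sestrin gene better known as a FOXO target, was lower with its relatives SESN1 and SESN2. Its brightest probe set read 831.1 and 611.3 (-0.44), and 5 others, dimmer, had ratios from -3.24 to -1.53, for example 238.8 and 38.1. Some of the 5 reached the signal minimum only through the control array, such as 126.2 and 7.9. The differences within families were not tested.

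**Figure D3:**
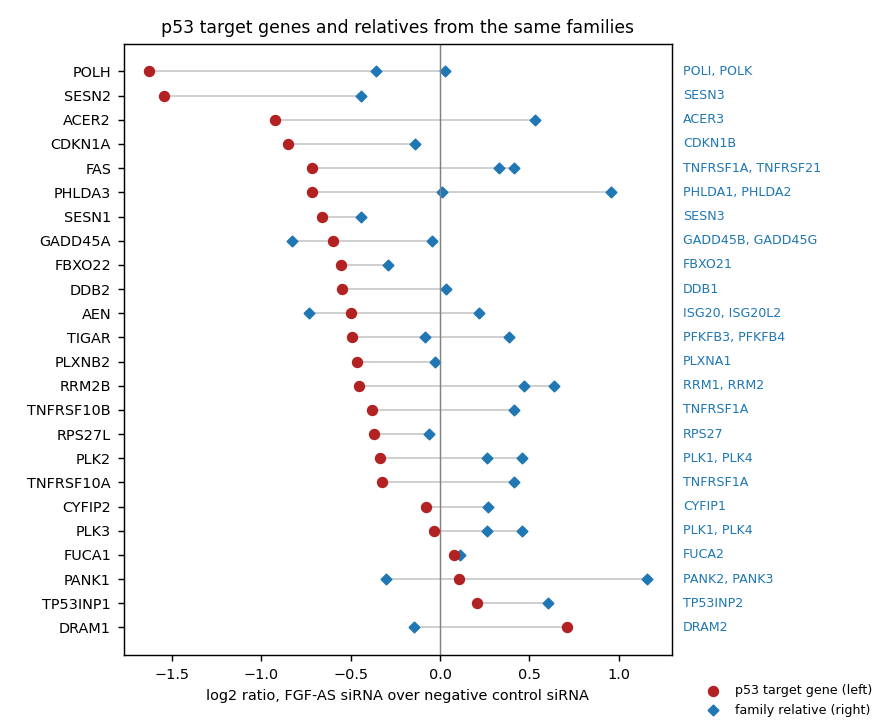
Log2 ratio of each of 24 p53 targets (circles, named on the left) and of its measured family relatives (diamonds, named on the right), on the brightest probe set of each gene. DDB1 beside DDB2 and RRM1 beside RRM2B are partners in a complex and not members of the same family. The circle lies left of every diamond in 20 rows, and the widest gaps to a relative are those of PHLDA3, POLH and ACER2.

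The p21 protein acts by binding cyclin-dependent kinases, their cyclins and PCNA. These 11 binding partners had a median of 0.21 with 6 above 0, 5 below 0 and none past 2-fold. Of all measured genes 51.8% were below 0, so in this count the partners stood near all genes. At least 1.5-fold higher were 3 of the 11 (CCNE2, CCND2 and CDK1), against 7.96% of all measured genes. None was at least 1.5-fold lower, against 9.52%. The dim CCND2, a G1 cyclin gene, reached the signal minimum only through the FGF-AS siRNA array (32.4 against 16). CCNE2, a G1/S cyclin gene, was furthest from 0 at 128.1 and 236.7 (0.86, and 0.31 on its other probe set), and CDK1, the mitotic kinase, read 3772.8 and 5799.8 (0.62). CDK2, a kinase of S phase entry, read 416.9 and 416.5, with -0.69 on its other probe set. The G1 genes CDK6 (976.9 and 734.2, -0.41, with 6 others from -2.58 to -0.57) and CCND1, which encodes cyclin D1 (1082.4 and 785.9, -0.46, and -0.77), were lower. The median became -0.0014 when probe sets of the _s_at and _x_at types were left out.

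A further 64 p53 targets served for comparison, of which 49 were measured. They had a median of -0.19 with 34 below 0, nearer to 0 than the median of the 31 genes above. Of all measured genes 51.8% were below 0. At least 1.5-fold lower were 14 of the 49, against 9.52% of all measured genes, and 2 were that much higher, against 7.96%. The share of all measured genes at least 2-fold lower was 2.72%. The 5 past 2-fold were all lower: CCDC90B, a mitochondrial coiled-coil gene (-1.08, and -0.37 on its other probe set), ANKRA2, an ankyrin repeat gene (-1.07), TM7SF3, a membrane protein gene (-1.01), MDM2 (1649.7 and 816.7, -1.01, lower on all 8 measured probe sets) and the dim TLR3, an RNA sensor gene (-1.01, and -0.27 on its other probe set). Some of the 8 MDM2 probe sets reached the signal minimum only through the control array, such as 84.2 and 1.4. Known targets near 0 included SFN, which encodes the 14-3-3 sigma arrest protein (3232.9 and 3365.3), PERP, a junction protein gene (5730.7 and 6209.4, with others from -0.06 to 0.85), and PMAIP1, the BH3-only gene of NOXA (697.8 and 710.2). A lower signal was thus common among p53 targets and not shared by all. The test of a difference between the lists is not possible with 1 array per group.

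**Figure D4:**
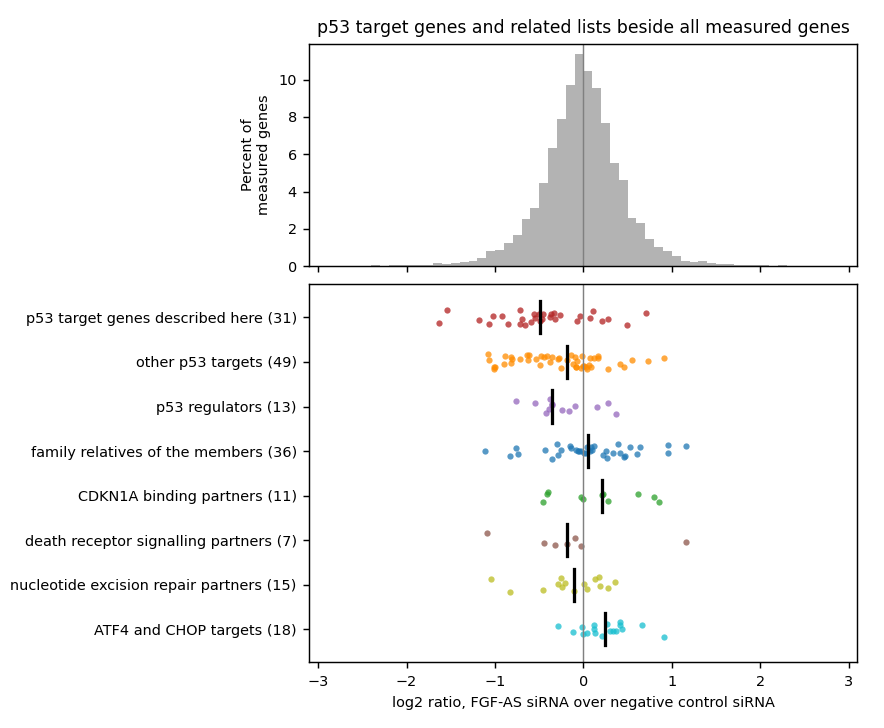
Log2 ratios of all 12352 measured genes (top, percent of genes per bin of 0.1, values past 3 in either direction put in the end bins) and of the p53 targets and related lists (bottom, 1 point per gene, black bar at the median, number of measured genes in brackets). The 31 targets have their median at -0.49, the other p53 targets at -0.19 and the family relatives at 0.05.

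The p53 regulators had a median of -0.35 with 10 of 13 measured genes below 0, against 51.8% of all measured genes. CHEK1, a checkpoint kinase gene, was furthest from 0 at 567.2 and 331.6 (-0.76, with others from -0.73 to -0.06). MDM4, the MDM2 relative that restrains p53, read 395.3 and 294 (-0.42), with others from -1.24 to 0.38.

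DNA sequence near the gene starts was examined because p53 acts through its decamer. RefSeq windows (GRCh38.p14) of 250 bases before to 50 after each annotated start were available for 26 of the 34 targets (36 windows). FBXO22, GADD45A, PHLDA3, RRM2B, TNFRSF10A, TNFRSF10B, TNFRSF10C and TP53INP1 had none. The exact p53 consensus decamer, which is its own reverse complement and so covers both strands, was found in 8 of the 36 windows (22.2%), each of a different gene, against 6.63% of all 35116 windows. The stretches are shown because each holds at least 1 of the decamers that p53 binds in pairs, with the exact matches in capitals, 5′ to 3′ on the strand of the gene.
DDB2: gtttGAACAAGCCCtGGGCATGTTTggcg
SESN1: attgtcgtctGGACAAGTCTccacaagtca
FAS: cggaactcctGGACAAGCCCtgacaagcca
AEN: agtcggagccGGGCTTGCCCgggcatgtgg
RPS27L: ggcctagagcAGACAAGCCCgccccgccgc
PLK2: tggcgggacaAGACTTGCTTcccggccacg
PANK1: gggcaggactGGGCATGCTCagtggcgggg
FDXR: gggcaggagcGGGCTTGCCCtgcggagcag

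The DDB2 stretch (chr11:47214975-47215003, plus strand) holds 2 decamers separated by 1 base and begins its first decamer at base 6 after one of the gene's annotated starts. Decamer pairs with at most 13 bases between them were found in 10 of all windows (0.0285%) and in 1 window of the targets, that of DDB2. The others hold 1 exact decamer, which begins before the start by 49 bases in SESN1 (chr6:109009018-109009047, minus strand), 122 in FAS (chr10:88991299-88991328, plus strand), 34 in AEN (chr15:88621296-88621325, plus strand), 59 in RPS27L (chr15:63157517-63157546, minus strand), 132 in PLK2 (chr5:58460199-58460228, minus strand), 23 in PANK1 (chr10:89645246-89645275, minus strand) and 11 in FDXR (chr17:74872986-74873015, minus strand). SESN1, FAS, PANK1 and FDXR, like DDB2, also have windows at other annotated starts, and those hold no exact decamer. These counts describe letters in a short window, and p53 sites further away, in first introns for example, lie outside it.

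The decamer did not sort the measured targets by their ratios. The 7 measured genes with it had log2 ratios from -0.72 (FAS) to 0.11 (PANK1), with a median of -0.50 and 6 below 0. The 16 measured genes whose windows lack it had a median of -0.59, from -1.63 to 0.71, with 13 below 0. CDKN1A, SESN2, TP53I3 and ZMAT3 are among those without an exact match. The box TATAAA, searched on both strands, was found in 1 of the 36 windows, that of GDF15, where it begins 29 bases before the start, against 11.5% of all windows.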

How the data were processed

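Signals of 54675 probe sets on 2 arrays (1 per group) were analysed. The intensities the authors deposited are linear. GCOS and MAS5 are listed in the submitters' processing notes without versions, and how the arrays were scaled to each other stays unknown. Medians over 54613 non-control probe sets were 25.5 (control siRNA) and 23.1 (FGF-AS siRNA). Detection calls were not used, so a dim signal cannot be told from background, and the number of arrays limits the precision. Of these probe sets 41091 had 1 symbol, 1801 several (2 of them on TNFRSF10C, left out) and 11721 none, and 41037 of the single symbols were matched by gene identifier to RefSeq (GRCh38.p14).

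An offset of 6.1 (percentile 25 of non-control signals) was added before log2. The minimum and the stricter minimum are percentiles 50 and 75 of the mean signal of both arrays. Folds refer to signals plus the offset, which understates changes of dim genes. The SD between probe sets was pooled within genes (3050 bright, 2365 dim). No test was made, since each group holds 1 array. The members, lists, function groups, thresholds and the rule for named genes (all members, list genes past 2-fold, otherwise the gene furthest from 0, and relatives or partners of members) were chosen with earlier results of these data known. SFN, PERP, PMAIP1, TRIB3, the pairing of members with relatives, and the decamer and TATAAA searches were chosen after values were seen. Ratios were computed with Python 3.11.15, numpy 2.4.6 and pandas 2.3.3, loess with statsmodels 0.14.6, and the procedure was tested on simulated data. The simulated arrays had equal log2 noise at every signal level and no shift between arrays. They therefore say nothing about dim genes or scaling. Alternatives were 2 other offsets, 3 scalings, 2 other minima and 2 other rules for the probe set that stands for a gene.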

Additional observations from a re-analysis of the deposited data

How the results depend on the processing

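Over the 9 alternatives the median log2 ratio of the targets ran from -0.55 to -0.44, while that of all measured genes ran from -0.06 to 0.06. Of the 31 targets, 23 stayed below 0 and 6 above 0 in every alternative that gave them a value, and PLK3 and CYFIP2 changed sign. The 2-fold count was 3 with quantile normalization and 3 at the stricter minimum, against 5, and otherwise 4 to 6. With the mean over probe sets the medians became -0.85 (arrest and growth control), -0.96 (death receptors) and -0.32 (other p53 targets). With probe sets of the _s_at and _x_at types left out, 22 targets had a value, the death receptor median became -0.70, that of metabolism, redox and organelle turnover turned to 0.077 and that of the p21 binding partners to -0.0014. These changes come with fewer genes or other probe sets, and SESN1, SESN2 and TP53I3 leave the metabolism group. Among all genes past 2-fold the share that was higher was 43.0%, and it was 51.6% with median centring, 60.6% with quantile normalization and 57.6% with loess, while no target was 2-fold higher under any. No paired analysis was possible because each group holds 1 array. The 5 dim members (PLK3, TNFRSF10C, EDA2R, ACER2 and POLH) carry the widest error.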

Other observations

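Several p53-linked genes outside the 31 targets were lower on every measured probe set they had, and they were chosen after their values were seen. Of all measured single-symbol probe sets 56.7% were below 0. HIPK2, a kinase that phosphorylates p53, was below 0 on all 9 measured probe sets, with log2 ratios from -1.63 to -0.45 (1267.9 and 865 on the brightest). PML, the gene of a nuclear body protein, was below 0 on all 8, from -1.23 to -0.14. PRKAB1 and PRKAB2, which encode the beta subunits of AMP-activated kinase, were below 0 on all 2 and 3 probe sets, from -1.82 to -0.72 and from -1.61 to -0.81. NINJ1, a membrane rupture protein gene, read 1790 and 1013.2 (-0.82). BAX, the mitochondrial pore gene of apoptosis, read 718.7 and 467.2 (-0.61, and -0.90 on its other probe set), and PPM1D, a phosphatase gene that shuts off p53 signalling, 642.5 and 415 (-0.62, and -0.84).

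The spread among targets did not follow their signal. Over the 31 measured targets Spearman's rho between mean signal and log2 ratio was -0.02, across genes of the same 2 arrays, which are not independent replicates.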
